A study of Homo sapiens with 14 samples.

Results

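The regions described here are stretches of DNA that were accessible in 6 of the 7 cell populations of a breast cancer study and far less accessible in the remaining one, clone M2. They were chosen by their measured values. For each region, counts were scaled to counts per 1e6 of the library total (CPM) and turned into a level, log2(CPM + 0.5), and the 2 libraries of a population were averaged. A region was kept where the level in M2 was at least 3 below the lowest of the other 6 populations. Of 65774 regions in the series, 1722 met this rule, which is 2.62%. A region without counts has a level of -1, so only a region with a level of at least 2 in all 6 other populations could qualify. There were 41511 such regions, called open regions from here on, and 4.15% of them were closed in M2 only.

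ATAC-seq libraries, 14 in all and 2 for each population, came from the clones M2, M1, E, EM1, EM2 and EM3, and the unselected line, Parental. All descend from SUM149PT, a human cell line of inflammatory breast cancer that lacks oestrogen and progesterone receptors, and all were untreated. Each clone is 1 line, so its 2 libraries measure that line only, and the labels do not say whether they came from separate cultures. What the clone letters stand for is not stated, but the title of the series refers to the epithelial-mesenchymal transition and to cells in an intermediate state of it. Each library held 8138944 to 16786823 counts over the regions. The 2 libraries of E stood further apart (Pearson r of levels 0.885 over regions) than the 2 of any other population (0.950 to 0.973), and the rule used E replicate 2 only. E replicate 1 is therefore given on its own where it lies below a range printed for the other 11 libraries. At the ends of genes that mark breast epithelium, EPCAM averaged 0.702 CPM in M2 and 49.1 CPM in Parental, CDH1 0.456 and 39.7 CPM, GRHL2 0.0344 and 42.7 CPM and ESRP1 5.39 and 57.0 CPM. A region shared by KRT8 and KRT18 went the other way, with 36.8 CPM in M2 and 27.1 CPM in Parental. KRT5, a basal marker, averaged 0.368 CPM in M2 and 21.6 CPM in Parental. Of the mesenchymal markers, VIM averaged 60.1 CPM in M2 and 21.0 CPM in Parental and FN1 44.2 and 19.2 CPM. ZEB1 had 19.1 CPM in both. M1 shared much of this pattern, averaging 9.82 CPM at EPCAM, 2.57 CPM at CDH1, 0.838 CPM at GRHL2 and 4.98 CPM at ESRP1. It averaged 54.3 CPM at VIM and 40.3 CPM at FN1, and at KRT5 it lay nearer to M2 than to Parental. At KRT8 and KRT18 (23.4 CPM) and ZEB1 (26.5 CPM), M1 did not follow M2. Most of these differences from Parental were thus not limited to M2. Of 8 blood and endothelial markers, only CD3E and SPI1 had a region at a gene end, and both were lowest in M2.

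In ATAC-seq a transposase cuts DNA that is free of tightly packed nucleosomes, so counts pile up at promoters, enhancers and other sites held open by transcription factors. Promoters rich in CpG dinucleotides tend to be open in most cell types. They are also the places where DNA methylation can silence a gene for many cell generations, and where Polycomb complexes act on genes of embryonic development. When single cells are grown into clones, each clone passes on the chromatin state, and any change of the genome, of its founder cell. In bulk samples, a lower count can come from fewer cells with the region open or from less signal per cell, and these cannot be told apart. A lost stretch of DNA and closed chromatin cannot be told apart from counts alone either.

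Of the 1630 regions closed in M2 only that lie on chromosomes with promoter sequences here, 210 overlapped a promoter window, taken from 250 bases before to 50 bases after a gene start. Of these, 4 are printed as examples of promoters rich and poor in CpG, with CG dinucleotides in capitals, in the direction of transcription, from RefSeq on GRCh38.p14. The first is from SIX2, a homeobox factor of kidney progenitor cells (chr2:45009403-45009702, minus strand), with 29 CpG and an observed over expected ratio of 0.95. The second is from FOXE1, a forkhead factor of thyroid development (chr9:97852976-97853275, plus strand), with 32 CpG and a ratio of 0.75. The third is from TLX3, a homeobox factor of neuron specification (chr5:171308998-171309297, plus strand), with 17 CpG and a ratio of 0.86. The last is from LAMB3, a laminin chain of hemidesmosomes (chr1:209652376-209652675, minus strand), with 10 CpG and a ratio of 0.36.
SIX2: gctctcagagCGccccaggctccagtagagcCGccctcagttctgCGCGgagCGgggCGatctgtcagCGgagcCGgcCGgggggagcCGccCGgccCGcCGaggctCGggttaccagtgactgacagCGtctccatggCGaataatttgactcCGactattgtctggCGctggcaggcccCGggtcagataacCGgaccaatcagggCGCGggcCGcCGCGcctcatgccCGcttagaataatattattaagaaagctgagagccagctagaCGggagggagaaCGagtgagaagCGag
FOXE1: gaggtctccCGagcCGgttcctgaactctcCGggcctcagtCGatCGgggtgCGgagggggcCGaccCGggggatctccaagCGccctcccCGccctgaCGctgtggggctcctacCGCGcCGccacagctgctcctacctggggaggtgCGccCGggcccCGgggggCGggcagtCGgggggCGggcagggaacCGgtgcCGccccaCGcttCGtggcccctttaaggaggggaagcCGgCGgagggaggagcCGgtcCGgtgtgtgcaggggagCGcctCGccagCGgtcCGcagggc
TLX3: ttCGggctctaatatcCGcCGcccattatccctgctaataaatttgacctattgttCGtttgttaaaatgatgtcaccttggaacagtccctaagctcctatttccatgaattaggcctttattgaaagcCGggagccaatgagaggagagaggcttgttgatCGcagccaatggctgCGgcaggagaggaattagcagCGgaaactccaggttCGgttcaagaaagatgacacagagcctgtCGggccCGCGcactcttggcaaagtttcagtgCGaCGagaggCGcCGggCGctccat
LAMB3: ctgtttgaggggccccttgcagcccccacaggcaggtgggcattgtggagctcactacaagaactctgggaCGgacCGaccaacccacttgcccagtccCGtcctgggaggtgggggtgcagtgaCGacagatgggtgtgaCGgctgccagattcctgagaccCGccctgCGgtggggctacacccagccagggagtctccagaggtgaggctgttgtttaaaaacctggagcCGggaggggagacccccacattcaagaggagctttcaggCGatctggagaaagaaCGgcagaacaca

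At the 1722 regions, the median was 0.431 CPM in M2 replicate 1 and 0.344 CPM in M2 replicate 2. In the other 12 libraries it lay between 13.8 CPM (E replicate 1) and 19.2 CPM. Both M2 libraries were below all 11 other libraries used by the rule at every one of the 1722 regions. E replicate 1, which the rule did not use, was also above both M2 libraries at 1722 of 1722. It is of the same clone as E replicate 2, which the rule held at least 3 above M2, so it gives no separate support. The same share over all open regions was not counted. The regions took 0.114% and 0.0973% of the counts of the 2 M2 libraries, against 3.15% to 4.23% of the counts of the others. These values follow from the rule, for E replicate 1 by way of the other library of E, and are a description. The gap between M2 and the lowest other population had a median of 3.61 and ranged from 3.0001 to 6.64 on the log2 scale. It was at least 4 at 487 regions, at least 5 at 86 and at least 6 at 7.

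**Figure D1:**
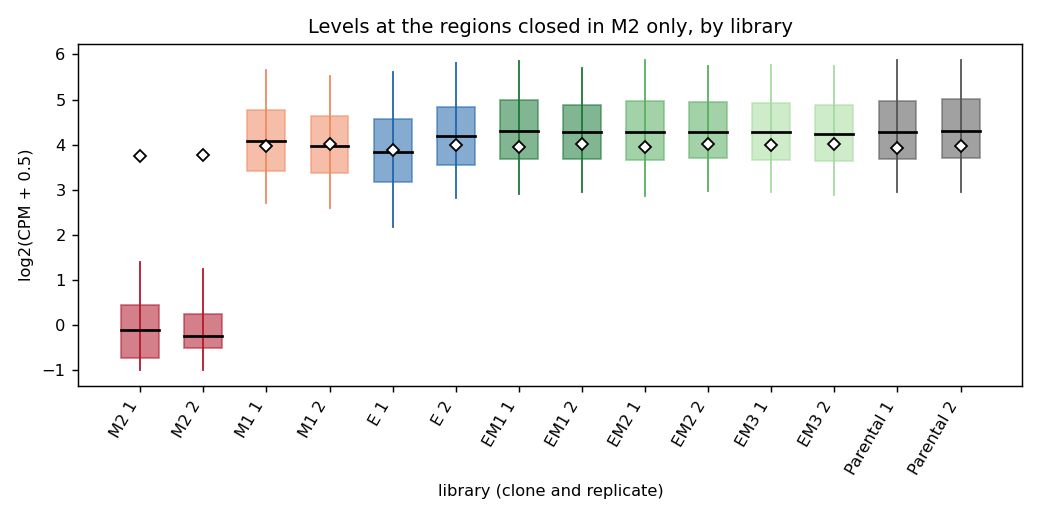
Levels at the 1722 regions closed in M2 only, as log2(CPM + 0.5), for each of the 14 libraries. Boxes span the quartiles with the median as a black line, thin lines run from the 5th to the 95th percentile, and white diamonds give the median over the 41511 open regions. Both M2 boxes lie below 1, and the M2 diamonds lie near 3.8, close to those of the other libraries.

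Depth limited the low end. Over both M2 libraries a region held a median of 9 counts, 277 regions held 1 to 3 counts and 41 held none. At the other end, 358 regions held over 20 counts, with 148 at the most, so closed means low beside the other populations. A count of 0 allows up to 0.323 CPM in M2 replicate 1 and 0.207 CPM in M2 replicate 2, taking 3 counts as the limit, for counting error only. The added 0.5 CPM therefore sets much of the size of the gap at such regions. Among the other 6 populations, the difference between the highest and the lowest level had a median of 0.89, against 0.77 over all open regions, and was over 2 at 92 regions. M1 was the lowest of the 6 at 38.3% of the regions, against 27.1% of open regions, and Parental at 7.67% against 14.7%. E was the lowest at 23.3%, near its 21.9% of open regions, and EM3, EM1 and EM2 at 11.6%, 9.81% and 9.29%, against 12.6%, 12.5% and 11.3%.

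The regions with the largest gaps near a gene were SEL1L2, GPD2, GALNT13, ELP2, TBCD and SIX2, all named by that rank. The SEL1L2 promoter region (chr20:13995038-13995748), at a relative of the endoplasmic reticulum quality control gene SEL1L, had 0.108 and 0.138 CPM in the M2 libraries. The other 11 libraries had 59.4 CPM at the lowest, 71.5 at the median and 103 at the highest, and E replicate 1 had 70.3 CPM. At GPD2 (chr2:156435530-156436641), the promoter region of a mitochondrial glycerol-3-phosphate dehydrogenase, M2 had 0 and 0.275 CPM and the other 11 libraries 45.5, 65.1 and 90.6 CPM at the lowest, median and highest. The M2 libraries did not overlap with the others at either promoter, as the rule requires.

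Inside GALNT13 (chr2:153871258-153872173), which starts O-linked glycosylation, M2 had 0.323 and 0.275 CPM and the other 11 libraries 59.1, 68.8 and 88.5 CPM at the lowest, median and highest. Inside ELP2 (chr18:36176215-36177247), a subunit of the Elongator complex that modifies transfer RNA, M2 had 0.215 and 0.275 CPM and the 11 libraries 45.5, 53.7 and 64.6 CPM. E replicate 1 had 25.6 CPM there, below all 11 but far above M2. Inside TBCD (chr17:82787101-82787704), a tubulin folding cofactor, neither M2 library had a count and the 11 libraries had 27.0, 56.1 and 71.8 CPM. At the SIX2 promoter, M2 had 0.861 and 0.482 CPM and the 11 libraries 70.3, 79.6 and 104 CPM.

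Further promoters with large gaps belonged to genes of unlike functions. At TIAM1, an activator of the GTPase Rac, M2 had 0.969 and 0.482 CPM and the other 11 libraries 55.5, 73.1 and 79.6 CPM at the lowest, median and highest, with 50.6 CPM in E replicate 1. At MST1R, the receptor RON for macrophage-stimulating protein, M2 had 0 and 0.0688 CPM and the 11 libraries 21.7, 28.6 and 52.0 CPM. DCT, a melanin synthesis enzyme, had 0.431 and 0.895 CPM in M2 and 55.3, 71.3 and 140 CPM in the 11 libraries, with 54.6 CPM in E replicate 1. AMN1, RCCD1 and SIM1 also ranked among the promoter regions with the largest gaps, of 5.79, 5.58 and 5.77, and a region at the start of MED12L, a relative of the Mediator subunit MED12, had a gap of 5.46.

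Promoters made up a smaller share of these regions than of open regions in general. A promoter window overlapped 12.9% of the regions closed in M2 only, against 21.3% of open regions on the same chromosomes. The share was far lower among the 629 regions closed in both M clones, of which 20 of 580 (3.45%) overlapped one. Open regions need a level of at least 2 in M1, so only 0.0217% of them were closed in both. The open regions are therefore no base for that set. How far the demand for a high level in M1 sets the difference between the 2 closed sets was not tested. The promoters differed in sequence as well. The observed over expected CpG ratio had a median of 0.785 at the 210 promoters closed in M2 only and 0.855 at the 8429 open promoters, and of 0.239 at the 20 closed in both M clones. A ratio of at least 0.6 was found at 77.1% of the first, 89.1% of the open promoters and 5% (1 of 20) of those closed in both. Among open promoters, the share closed in M2 only was 3.85%, 4.79% and 5.87% for ratios of 0 to 0.2, 0.2 to 0.4 and 0.4 to 0.6. It was 2.98%, 2.00% and 1.32% for ratios of 0.6 to 0.8, 0.8 to 1 and over 1. The promoters were described without a test of these shares, since promoters are not replicates of a clone.

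**Figure D2:**
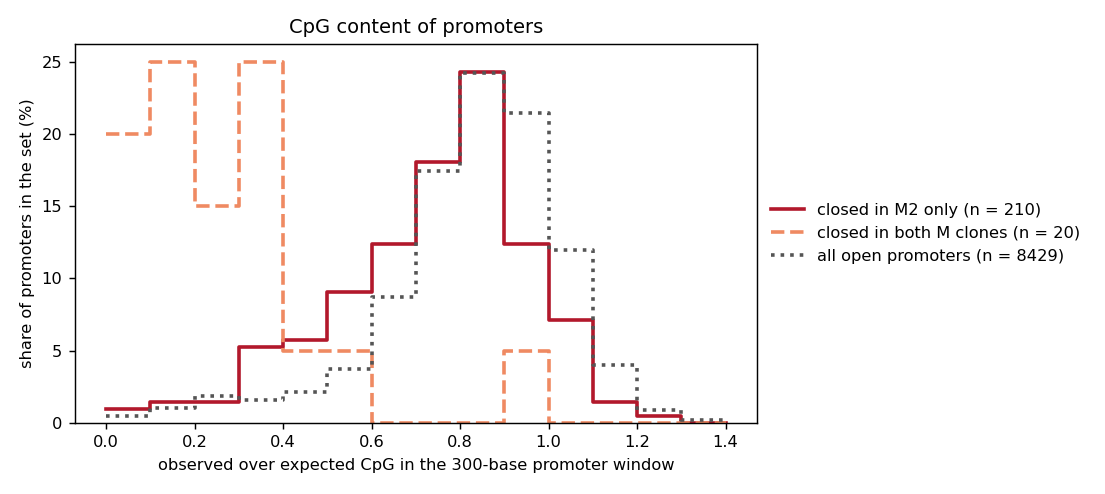
Share of promoters (%) by observed over expected CpG ratio in the 300-base promoter window, in steps of 0.1, for promoters closed in M2 only (n = 210), closed in both M clones (n = 20) and all open promoters (n = 8429). The first set peaks between 0.8 and 0.9 like the open promoters, with more of its promoters below 0.6, and the second lies mostly below 0.4.

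Letters of known motifs were counted on both strands of the 300-base windows of the 210 promoters and of 8162 other open promoters. The SP letters GGGCGG were in 72.4% of the promoters closed in M2 only and 74.5% of the others, and in 56.3% of all 22199 windows. The E-box CAGGTG, bound by SNAI and ZEB factors, was in 22.9% and 17.4%, and in 19.9% of all windows. The TEAD letters GGAATG were in 5.71% and 10.2%, and in 12.2% of all windows. The ETS letters CCGGAAGT were in 4.76% and 9.48%, and in 5.34% of all windows. The AP-1 letters TGANTCA were in 2.38% and 4.86%, and in 6.15% of all windows. The letters of RUNX (2.857% and 2.904%), forkhead (2.38% and 2.13%), grainyhead (0.952% and 1.29%), the CTCF core (23.3% and 26.5%), NF-kB (2.38% and 1.72%) and C/EBP (0% and 0.233%) were also counted, 11 motifs in all. These are counts of letters and do not show binding.

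A family of genes stood out by name among the promoters, and it was picked after the names were seen. Symbols of transcription factor families with roles in embryonic patterning (homeobox, forkhead, T-box, SOX, RUNX, POU, ZIC and the like) accounted for 59 open promoters. Of these, 13 (22.0%) were closed in M2 only, against 210 of 8429 (2.49%) of all open promoters. The 13 were those of SIX2, SIM1, TLX3, FOXE1, ZIC4, ISL1, TBX20, TFAP2A, WT1, HAND2, RUNX3, DLX6 and POU4F1. None of the 66 promoter regions of these families, open or not, was closed in both M clones. Only 20 of the 8921 promoter regions of the series were, so this count of 0 carries little information. Of all 552 regions assigned to such genes, open or not, 2 were closed in both. Of all 379 open regions assigned to such genes, 51 (13.5%) were closed in M2 only, against 3.93% of open regions with a gene. Since the family was drawn up from these names, its share is a description without a test.

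At FOXE1, M2 had 0.215 and 0.344 CPM and the other 11 libraries 29.2, 34.1 and 52.2 CPM at the lowest, median and highest. At TLX3, M2 had 0.323 and 0.413 CPM and the 11 libraries 34.2, 38.3 and 49.0 CPM. SIM1, a factor of the hypothalamus, had 0.215 and 0.138 CPM in M2 and 34.2, 45.4 and 59.99 CPM in the 11 libraries. ISL1, a factor of motor neurons and heart progenitors, and TBX20, a T-box factor of the heart, also did not exceed 0.413 CPM in either M2 library. The WT1 promoter, of a zinc finger factor of kidney and gonad, had 1.18 and 2.27 CPM in M2 and 55.1, 111 and 169 CPM in the 11 libraries, with 37.1 CPM in E replicate 1.

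The other populations kept these promoters open, with smaller differences among themselves that the rule left free within limits. In M1 against Parental, edgeR's quasi-likelihood test with Benjamini-Hochberg adjustment over 65771 regions called 4 of the 13 at an adjusted p under 0.05, where 42.4% of all regions were called. RUNX3, a Runt-domain factor, had 26.1 and 28.2 CPM in M1 and 15.3 and 15.3 CPM in Parental, a log2 change of 0.79 (SE 0.22, edgeR adjusted p = 0.01). HAND2, a factor of heart and limb, had 32.5 and 32.2 CPM in M1 and 16.8 and 20.9 CPM in Parental, a log2 change of 0.74 (SE 0.20, edgeR adjusted p = 0.0099). TFAP2A, a factor of neural crest and skin, fell by 0.83 (SE 0.19, edgeR adjusted p = 0.0026), with 33.8 and 29.4 CPM in M1 and 59.0 and 50.3 CPM in Parental. ZIC4, a zinc finger factor of the cerebellum, fell by 0.80 (SE 0.19, edgeR adjusted p = 0.0048). The calls of RUNX3 and HAND2 were lost without Parental replicate 1 and that of RUNX3 also without Parental replicate 2, and that of ZIC4 without M1 replicate 2, while TFAP2A was called under all 22 alternatives. The median log2 change of the 13 promoters in M1 was -0.03, against 0.01 over all regions. In E against Parental, 0 of the 13 rose and 3 fell, where 5.26% and 6.31% of all regions did. WT1 fell by 1.35, HAND2 by 0.81 (SE 0.21, edgeR adjusted p = 0.028) and TFAP2A by 0.80 (SE 0.19, edgeR adjusted p = 0.017). The calls of HAND2 and TFAP2A in E were lost without E replicate 1 and without either Parental library. In EM1, EM2 and EM3, 0 of the 13 were called.

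**Figure D3:**
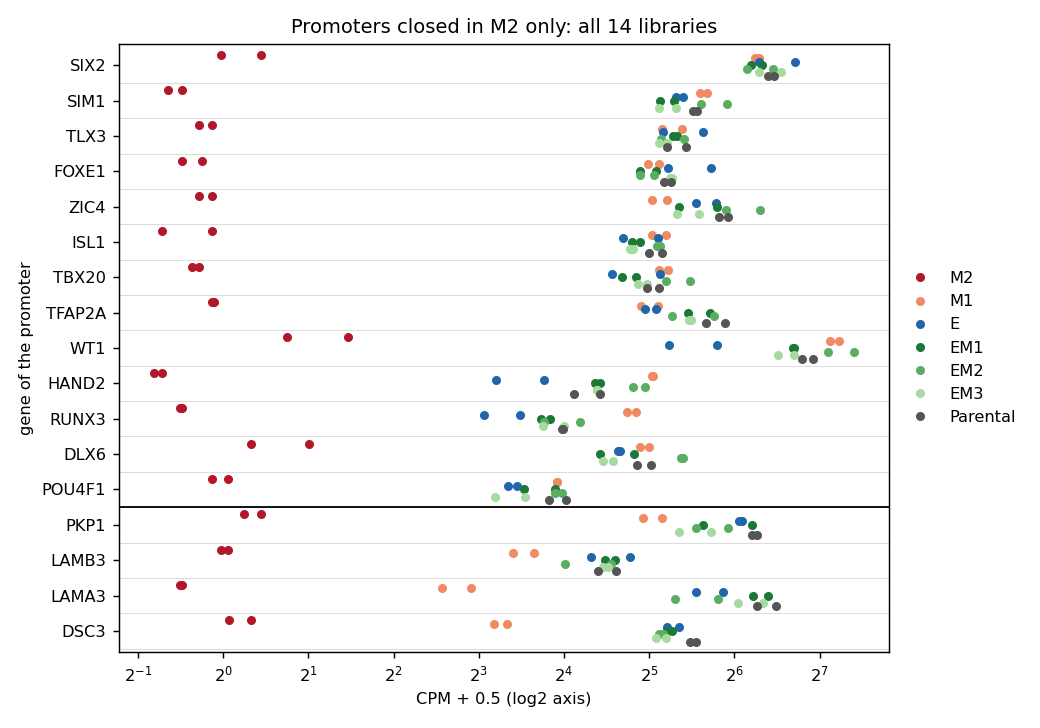
CPM + 0.5 on a log2 axis in all 14 libraries at the 13 promoters of developmental transcription factors (above the black line) and the 4 promoters of desmosome and hemidesmosome genes (below it) closed in M2 only. Each point is a library. M2 lies far left at all 17 promoters, and M1 lies between M2 and the other populations at the 4 lower ones.

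Adhesion genes were among the listed genes with promoters in the set. Desmosomes join epithelial cells to each other and hemidesmosomes anchor them to the basement membrane. Of 96 open regions of the listed desmosome and hemidesmosome genes, 7 (7.29%) were closed in M2 only, and 4 of these were promoters: PKP1 and DSC3 of the desmosome, and LAMA3 and LAMB3, chains of the laminin that hemidesmosomes bind. All 4 fell in M1 against Parental, where 23.4% of all regions fell. At DSC3, M2 had 0.754 and 0.551 CPM, M1 9.60 and 8.56 CPM and Parental 44.1 and 46.2 CPM. The log2 change in M1 against Parental was -2.36 (SE 0.16, edgeR adjusted p = 3e-07). At LAMA3, M2 had 0.215 and 0.207 CPM, M1 5.44 and 6.98 CPM and Parental 76.5 and 89.5 CPM. The log2 change in M1 was -3.76 (SE 0.22, edgeR adjusted p = 1.2e-07). These promoters were thus low in M1 too, but still at least 3 above M2 on the log2 scale. PKP1 fell in M1 by 1.24 (SE 0.21, edgeR adjusted p = 0.00027) and LAMB3 by 1.05 (SE 0.24, edgeR adjusted p = 0.003). The 4 calls were made under all 22 alternatives. The promoter of MARVELD2, tricellulin of epithelial tight junctions, fell in M1 by 1.25 (SE 0.21, edgeR adjusted p = 0.00028), also under all 22 alternatives.

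The remaining lists were described by counts beside the 4.15% of open regions closed in M2 only. Of the open regions of epithelial identity genes, 6 of 108 (5.56%) were closed in M2 only, among them regions at CDH3, EPCAM, MAL2, MARVELD2 and PATJ. Of those of transcription factors of the epithelial-mesenchymal transition, 4 of 43 (9.30%) were, with 2 promoters of TCF4 and regions near SNAI1 and SOX9. Of those of collagens and matrix proteases, 8 of 99 (8.08%) were, 5 of them inside COL4A2, a chain of basement membrane collagen. The Wnt list held 7 of 114 (6.14%), with the promoter of the receptor ROR2, and the Hippo and TEAD list 9 of 150 (6%), with 3 regions at the kinase gene STK3. Guidance genes held 7 of 107 (6.54%), 4 of them at SLIT3, a secreted ligand of ROBO receptors.

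Shares were 2 of 28 (7.14%) for RUNX and CBFB, 3 of 48 (6.25%) for protocadherins and cadherins, 4 of 68 (5.88%) for NF-kB and cytokines, and 5 of 153 (3.27%) for the TGF-beta pathway. Below these were 2 of 68 (2.94%) for integrins, 3 of 104 (2.88%) for mesenchymal effectors, and 1 of 48 (2.08%) for AP-1 factors. Receptor tyrosine kinases had 2 of 128 (1.56%). No region of the basal and p63-linked genes (0 of 29), interferon and antigen presentation genes (0 of 48) or housekeeping genes (0 of 35) was closed in M2 only. These lists differed in regions closed in both M clones. The basal and p63-linked genes had 7 such regions, the interferon and antigen presentation genes 0 and the housekeeping genes 0. Most of these counts are under 10, and a few regions of 1 gene set several of the shares.

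Single regions of signalling genes illustrate the lists. At ROR2, M2 had 0.646 and 2.41 CPM and the other 11 libraries 38.1, 49.5 and 70.2 CPM at the lowest, median and highest. Inside TCF7L2, a transcription factor of the Wnt pathway, M2 had 0.215 and 0.482 CPM and the 11 libraries 32.0, 41.2 and 65.2 CPM, with 31.2 CPM in E replicate 1. Near CXCL1, a chemokine that attracts neutrophils, M2 had 0.215 and 0.207 CPM and the 11 libraries 15.3, 54.5 and 140 CPM, a wide range among populations that were all open. The promoter of SLIT3 had 0.431 and 0.207 CPM in M2 and 18.5, 24.8 and 36.3 CPM in the 11 libraries.

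Zinc finger genes named ZNF, ZSCAN or ZFP, also picked after the names were seen, had 14 of 315 open promoters (4.44%) closed in M2 only, against 2.49% of all open promoters. Of the 14, 8 were on chromosome 19, which holds large clusters of such genes and 136 of the 315, so that the share was 5.88% there and 3.35% elsewhere. In M1 against Parental their median log2 change was 0.03, with 0 higher and 1 lower by edgeR, where 19% and 23.4% of all regions were. Of 37 open promoters of clustered histone genes, 3 (8.11%) were closed in M2 only: H1-1, H1-5 and H2BC6.

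Along the genome, 1409 of the 1722 regions had no neighbour closed in M2 only on either side in the list of regions. In windows of 1 Mb, 626 (36.4%) were the only one. The set is 2.62% of all regions. How many would have no such neighbour if they were scattered evenly was not worked out, so these counts do not show scatter. For each region, the nearest regions outside the set on either side were found, and their log2 differences between M2 and Parental were averaged. This average had a median of -1.01 (quartiles -2.15 and 0.00), against -4.31 at the regions themselves and -0.11 over all regions. It was less than 1 in size in 41.1% of cases and at or below -3 in 9.99%. Flanks that moved in opposite directions can cancel in it.

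A few stretches were closed over several neighbouring regions. The largest group lay on chromosome 2 between 1 and 2 Mb, where 16 of 21 regions were closed in M2 only, 14 of them in 1 unbroken run (chr2:1550782-1744912). PXDN, peroxidasin, which crosslinks basement membrane collagen, held 12 of them, and its promoter was 1. At the PXDN promoter region, M2 had 0.215 and 0.138 CPM, M1 31.2 and 28.5 CPM and Parental 36.03 and 28.96 CPM. Over the 16 regions the mean of the 2 M2 libraries lay between 0.0344 and 1.69 CPM, that of M1 between 6.22 and 49.2 CPM and that of Parental between 6.20 and 54.6 CPM. No value of M2 overlapped one of M1 or Parental, a separation that the choice of these regions by the rule largely fixed. The 5 other regions of this stretch had 0.295 to 1.06 CPM in M2, with a median difference between M2 and Parental of -2.36, and the 2 farthest upstream were as low in Parental. Lost DNA and closed chromatin cannot be told apart here. Each of the 16 regions held at least 1 count in M2 and 1 held 43, and the source of these counts was not tested.

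**Figure D4:**
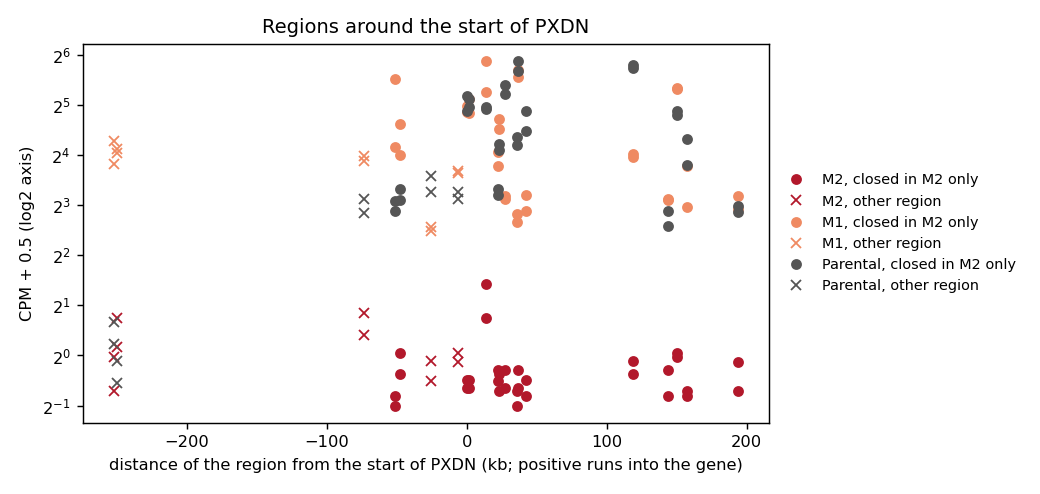
CPM + 0.5 on a log2 axis for the 21 regions within 500 kb of the start of PXDN, against distance from that start in kb, for both libraries of M2, M1 and Parental. Circles are the 16 regions closed in M2 only and crosses the 5 others. M2 lies below M1 and Parental at all 16 circles and below M1 at all 5 crosses, while Parental is as low as M2 at the 2 crosses farthest upstream.

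Of the 16 regions, edgeR called 2 higher and 4 lower in M1 against Parental, near the 42.4% of all regions called in either direction. A region inside PXDN had 8.54 and 8.21 CPM in M1 and 36.7 and 41.8 CPM in Parental, a log2 change of -2.27 (SE 0.23, edgeR adjusted p = 5.1e-06). A region inside the neuronal zinc finger gene MYT1L had 45.7 and 17.3 CPM in M1 and 8.02 and 6.90 CPM in Parental, a log2 change of 2.04 (SE 0.44, edgeR adjusted p = 0.002), with the 2 M1 libraries far apart. Without M1 replicate 1 this change was 1.19, still called. The other rise, also at MYT1L, was 1.13 and was not called without M1 replicate 1 or either Parental library.

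Other groups were smaller. On chromosome 17 between 9 and 10 Mb, 10 of 24 regions were closed in M2 only, 6 of them inside the ubiquitin protease gene USP43, with a median of -1.70 at the rest of the window. On chromosome 19 between 23 and 24 Mb it was 9 of 20, at ZNF724, ZNF91, ZNF675 and RPSA2, with a median of -3.25 at the rest. Windows on chromosome 1 (238 to 239 Mb) and chromosome 8 (35 to 36 Mb) held 8 of 18 and 7 of 12, far from protein-coding genes. On chromosome 20 (58 to 59 Mb) it was 7 of 50, near APCDD1L, CIMIP1 and GNAS. TIAM1 held 6 of its 13 regions in the set, its promoter among them. Windows with at least 5 such regions numbered 31 and held 196 of the 1722.

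By chromosome, the share of open regions closed in M2 only was highest on chromosome 13, at 8.05% (78 regions), then 5.58% on chromosome 20, 5.37% on chromosome 9 and 5.33% on chromosome 21, and lowest among the autosomes and X on chromosome 22, at 2.09%. On chromosomes 13, 9 and 20 the regions outside the set were also lower in M2 than in Parental, by a median of -0.67, -0.61 and -0.51 on the log2 scale, whereas on chromosome 21 they were higher by 0.40. Copy number was not measured, and its part in these shares was not tested.

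The rule set M1 apart from M2, so the 2 M clones were also compared without it. Leaving M1 out of the rule, 4028 regions were at least 3 lower in M2 than in the lowest of the other 5 populations. M1 was at least 3 above M2 at 1722 of these (42.8%), which are the regions described here, between 1 and 3 above at 1397, and less than 1 above at 909 (22.6%). Promoter windows were overlapped by 12.9% of the first, 3.96% of the second and 3.22% of the last group on covered chromosomes. The median CpG ratio of those promoters was 0.785, 0.447 and 0.262 in the same order. Regions that only M2 had closed thus had a larger share of promoters, with more CpG, than regions that M1 shared, as a description of 1 pair of clones. Only the first group was chosen for a high level in M1, and how far this sets the difference was not tested. The same rule turned to the other populations gave 30 regions closed in M1 only, 6 in E only, 7 in EM2 only and 0 in EM1, EM3 or Parental only. It gave 1516 regions open in M2 only.

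All 1722 regions passed the filter on low counts, through the populations in which they were open. M2 against Parental was the contrast that chose them, so it was given no test. In that contrast edgeR called 34.9% of all 65771 regions lower. The 5 comparisons of the other clones with Parental did not involve M2, but share the Parental libraries and were limited by the rule, which kept only regions where each population stayed well above M2.

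In M1 against Parental, 133 of the 1722 regions (7.72%) rose and 471 (27.4%) fell by edgeR's quasi-likelihood test. Over all tested regions, 19% rose and 23.4% fell, 42.4% in either direction. The median log2 change was -0.25 at the regions closed in M2 only and 0.01 over all. The region that fell most lay inside PMEPA1, a TGF-beta response gene, with 10.1 and 10.5 CPM in M1 and 199 and 224 CPM in Parental. Its log2 change was -4.39 (SE 0.34, edgeR adjusted p = 7.2e-07). M2 had 0.754 and 0.482 CPM there. The region that rose most lay inside ZNF536, a zinc finger repressor of neuronal differentiation, with 65.2 and 44.1 CPM in M1 and 9.46 and 11.1 CPM in Parental. Its log2 change was 2.37 (SE 0.50, edgeR adjusted p = 0.0017), and M2 had 0.215 and 0.344 CPM. Regions inside PHACTR3 and AP1B1 and near APLP2 fell in M1 by 3.44, 2.92 and 2.93, and a region near the melanocortin receptor gene MC3R rose by 2.07. All of these M1 calls were made under all 22 alternatives.

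In E against Parental, 9 of the 1722 regions (0.523%) rose and 203 (11.8%) fell by edgeR. Over all tested regions 5.26% rose and 6.31% fell, 11.6% in either direction. The median log2 change was -0.27. The count moved with single libraries: 90 were called without E replicate 1 (12 rose and 78 fell), 81 without Parental replicate 1, 55 without Parental replicate 2 and 267 without E replicate 2. Over all tested regions the share called was 5.16%, 3.44%, 1.88% and 14.1% in those fits. The calls that held include WT1, where an internal region (chr11:32420867-32421451) had 8.85 and 12.6 CPM in E and 53.3 and 58.2 CPM in Parental. Its log2 change was -2.40 (SE 0.26, edgeR adjusted p = 0.00046), and the WT1 promoter changed by -1.35 (edgeR adjusted p = 0.002). Both were called under all 22 alternatives. M2 had 1.18 and 0.688 CPM at the internal region, and the E libraries did not overlap with those of M2 or Parental.

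E replicate 1 was not used to choose the regions, and can be set beside E replicate 2. At the 1722 regions the level of E replicate 1 minus that of E replicate 2 had a median of -0.33, and E replicate 1 was lower at 1356 of them (78.7%). Its summed CPM was 81.2% of that of E replicate 2. Over all regions the median difference was 0.01, and over open regions -0.06. At the 629 regions closed in both M clones it was -0.17, with E replicate 1 lower at 64.2%, so a shift the same way was also seen there. In the other 6 populations the 2 libraries differed at the 1722 regions by medians within 0.08. At the 1516 regions open in M2 only, which were chosen with E replicate 2 low, E replicate 1 was higher than E replicate 2 by a median of 2.08, with a summed CPM of 594%. With E left out of the rule, the median difference was -0.30 at 1981 closed regions and 1.96 at 1725 open regions, where the summed CPM was 434%. E replicate 1 thus lay nearer to M2 than E replicate 2 did in both of these sets. The comparison is of 1 library with 1 and has no test.

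**Figure D5:**
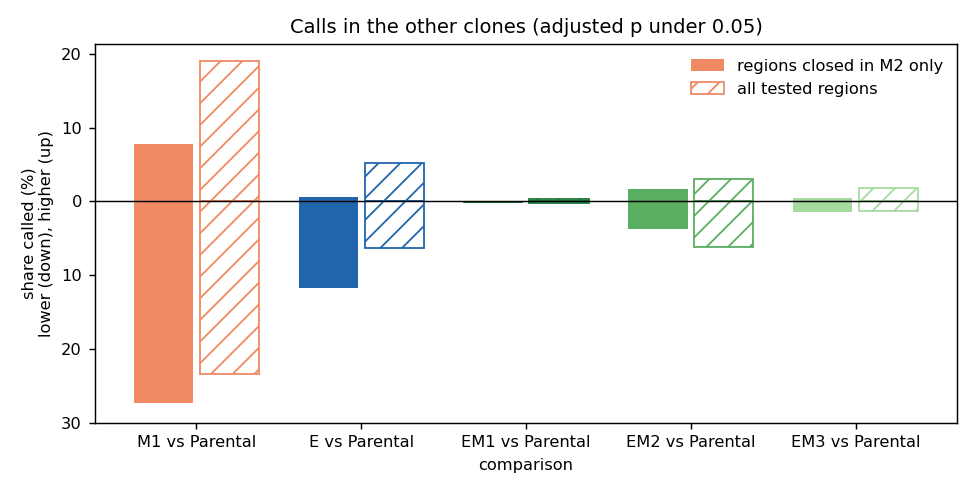
Share of regions called higher (upward) and lower (downward) against Parental at an adjusted p under 0.05, for regions closed in M2 only (filled bars, of 1722) and all tested regions (hatched bars, of 65771), in 5 clones. In M1 and E the filled bars reach further down and less far up than the hatched bars.

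In the EM clones few of these regions were called. In EM1 0 rose and 4 fell, with 0.341% higher and 0.287% lower over all regions (0.628% in either direction). In EM2 28 rose and 64 fell, with 3.02% higher and 6.17% lower over all regions (9.19% in either direction). In EM3 7 rose and 25 fell, with 1.85% higher and 1.26% lower over all regions (3.11% in either direction). The median log2 changes were -0.07, -0.02 and -0.12 in EM1, EM2 and EM3. Of the 1722 regions, 979 (56.9%) were called in none of the 5 clones, against 50.8% of all tested regions. Those called in M1 alone were 435 (25.3%), against 29.1%, and those called in at least 2 clones were 180 (10.5%), against 13.9%.

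The promoter of KLRG2, a C-type lectin gene, fell in EM3 with 9.95 and 9.42 CPM in EM3 and 29.5 and 31.8 CPM in Parental. The log2 change was -1.71 (SE 0.20, edgeR adjusted p = 0.0017), called under all 22 alternatives. In EM1 it changed by -1.36 (SE 0.20, edgeR adjusted p = 0.013), a call lost when any 1 library of EM1 or Parental was left out. A region inside MPDZ, a scaffold protein of tight junctions, fell in EM2 with 13.1 and 12.9 CPM in EM2 and 33.4 and 45.3 CPM in Parental. The log2 change was -1.62 (SE 0.25, edgeR adjusted p = 0.0015), called under all 22 alternatives. The MPDZ region fell further in M1, with 9.18 and 5.34 CPM and a log2 change of -2.50 (SE 0.26, edgeR adjusted p = 7.5e-06). M2 had 0.108 and 0.0688 CPM at that region and 0.108 and 0.275 CPM at KLRG2.

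The authors' peak lists come from the same cells as the counts, so at regions chosen for few M2 counts they are a description and no outside support. The list named M2 overlapped 0 of the 1722 regions by at least 1 base, while it overlapped 59.4% of open regions and 50.1% of all regions. Lists named for the other populations overlapped between 43.8% (E) and 88.0% (Parental) of the regions, against 48.5% and 81.7% of open regions. At 572 regions (33.2%) all 6 other lists had a peak and the list named M2 had none, against 4.03% over all regions. The record of each list and its name disagree, the list named M2 being recorded under M1 replicate 2, so the lists are described by their names.

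The limit of 3 cut through a continuous range, with 160 regions at gaps of 3 to 3.1 and 192 at 2.9 to 3. Just inside it, the STK26 promoter region had 5.49 and 4.34 CPM in M2 and at least 38.3 CPM in the other 11 libraries, and a region near ABCA1 had 0.754 and 0.413 CPM in M2 and at least 5.82 CPM in the others. Just outside, a region inside B4GALNT3 had 1.72 and 0.826 CPM in M2 and at least 11.2 CPM in the others, and a region inside PLEKHA5 had 0.538 and 0.138 CPM in M2 and at least 6.002 CPM in the others, with 5.16 CPM in E replicate 1.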

How the data were processed

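ATAC-seq counts of 14 libraries in 65774 regions were taken as deposited: raw counts per region made by the authors, per the file headers. The submitters' processing notes name hg38, the aligner Bowtie2 2.2.6, the peak caller MACS2 2.1.1 and the counter featureCounts among other tools. The 7 deposited peak lists were used by position only. Their score, their fold enrichment ratio and their -log10 p and q values were deposited by the authors and not used. The step that merged peaks into regions is not stated.

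The members and the gene lists were chosen with earlier results of these data known. Regions were matched to the nearest protein-coding gene within 50 kb and to promoter windows of RefSeq on GRCh38.p14, which hold none on chromosome 8 (92 of the 1722 regions are not covered). With no genome sequence, motifs were counted in promoter windows only. The 19 lists hold 379 genes. The result of 1 list is not reported here.

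Counts were scaled by TMM, filtered with filterByExpr (minimum count 10, 3 regions removed) and tested with edgeR 4.0.16 in R 4.3.3, by quasi-likelihood F tests fitting 1 mean to each of the 7 populations. Benjamini-Hochberg adjustment ran over 65771 regions, which were called under 0.05. The fitted biological coefficient of variation was 0.208 in common. P-values measure the spread between these libraries, which may be technical. Libraries ranged from 8138944 to 16786823 counts; no 2 libraries of a population agreed within sampling noise (chi-square per degree of freedom 3.89 to 8.67).

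Regions named are those with the largest gaps near genes and at gene starts, the largest within each list, those just inside and outside the limit, those of the windows and genes with the most members, and the largest changes called against Parental. Developmental factor, zinc finger and histone families and the promoters of listed genes were added after names were seen. Alternatives were other scalings, no filter, DESeq2 1.42.0, a replicate block, fewer libraries, each library left out, and other settings of the rule. Those without M1 or E in the rule, and without the M2 libraries and E replicate 1 together, were added after seeing the data.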

Additional observations from a re-analysis of the deposited data

How the results depend on the processing

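The number of regions closed in M2 only depends on the added constant and the limit: 907 with 1 CPM added, 343 with 2 CPM added, 4422 at a gap of 2, 487 at a gap of 4 and 4028 with M1 left out of the rule. It was 1494 to 1918 with a library left out. Regions with few counts in M2 have a gap that the constant sets. Against Parental, M1 calls (604) stayed within 1.5 times under the alternatives run. E calls (212) were 388 with a replicate block, 96 without the M2 libraries and E replicate 1, and 55 to 267 with a library left out. EM1 calls (4) were 22 with a replicate block, 8 without the M2 libraries, 15 with only the 4 libraries compared, 14 without the M2 libraries and E replicate 1, 19 by DESeq2 and 0 to 8 with a library left out. EM2 calls (92) were 221 with a replicate block, 146 with the 4 libraries, 143 without the M2 libraries and E replicate 1, 147 by DESeq2 and 15 to 123 with a library left out. EM3 calls (32) were 112 with a replicate block, 121 with the 4 libraries, 58 without the M2 libraries and E replicate 1, 78 by DESeq2 and 1 to 61 with a library left out. The cause was not tested. The labels do not say that replicate numbers pair libraries. The replicate differences of populations correlated at 0.03 to 0.62, over 0.1 in 19 of 21 pairs, a hint of shared numbering. It falls short of every pair, so the Results give the calls of the fit without a replicate block. The counts with the block are given in this section only. A population left with 1 library is assumed to vary like the others. No named change turned its direction.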
